A study of Mus musculus with 2 samples.

Results

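The genes described here are the Mir99, Mir100 and Mir125 genes of 3 microRNA polycistrons, on mouse chromosomes 16, 9 and 17. They were chosen by gene symbol in GENCODE M21: Mir99a and Mir125b-2 on chromosome 16, Mir100 and Mir125b-1 on chromosome 9, and Mir99b and Mir125a on chromosome 17. All 6 are among the 1973 miRNA genes counted, and all 6 were detected (10 reads or more in each library). The libraries are small RNA sequencing (labelled as a size range under 30) of neural tube from embryos of strain B6NCrl at 12.5 days. Both belong to 1 group, with no treatment, mutation or second tissue, and each is a pool of male and female embryos, 120 in replicate 1 and 88 in replicate 2. Reads on the own strand of miRNA genes numbered 4802411 and 4422853, and levels are given as reads per 1000000 of these gene reads (CPM). Where a gene had 0 reads, its level could still be as high as 3 counts, which is 0.625 CPM in replicate 1 and 0.678 CPM in replicate 2. Intervals and floors cover counting error only, and treat reads as independent. The counts are of amplified reads, not corrected here by molecular identifiers. Such reads are not independent, so the intervals can be too narrow even for counting error.

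A polycistron is a stretch of the genome whose miRNA hairpins can be cut from a shared primary transcript. Each of these 3 carries a miR-99/100 gene, a let-7 gene and a miR-125 gene in that order, an arrangement found across bilaterian animals. The miR-99/100 miRNAs belong to the same ancient family as miR-10 and are known for repressing Mtor and other growth-signalling genes. miR-125 is the vertebrate relative of Caenorhabditis elegans lin-4. It acts with let-7 on developmental timing genes such as Lin28a, and in the nervous system it is known for promoting neuronal differentiation.

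The mature sequences set the families apart and show which of them a short read can tell from one another, so those of the 5p arms are given first, 5′ to 3′, from RefSeq (GRCm38.p6). The seed, bases 2 to 8, which pairs with target mRNAs, is in capitals.
miR-99a-5p: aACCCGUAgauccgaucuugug
miR-100-5p: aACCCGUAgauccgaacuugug
miR-99b-5p: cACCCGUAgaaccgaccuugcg
miR-125a-5p: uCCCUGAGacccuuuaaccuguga
miR-125b-5p: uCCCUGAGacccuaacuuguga
miR-351-5p: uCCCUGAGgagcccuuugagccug
miR-10a-5p: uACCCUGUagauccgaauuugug
In the RefSeq table the seed ACCCGUA belongs to 3 genes, which are the 3 miR-99/100 members. The seed CCCUGAG belongs to 6 genes: the 3 Mir125 genes, Mir351, Mir6367 and Mir6394. Positions in what follows are counted from 1 at the 5′ end of the mature sequence, with the base of the first-named miRNA written first. miR-99a-5p and miR-100-5p differ at 1 position (U16A). miR-99a-5p and miR-99b-5p differ at 4 (A1C, U11A, U16C and U21C). miR-125a-5p and miR-125b-5p share their first 13 bases and are 3 single-base edits apart. miR-100-5p shares a run of 11 bases with miR-10a-5p, though their seeds differ.

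miR-125b-5p is made from both Mir125b genes, so a read of exactly that sequence fits chromosomes 9 and 16 equally. Their 3p arms differ, and these are printed for the same reason.
miR-125b-1-3p: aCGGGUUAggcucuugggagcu
miR-125b-2-3p: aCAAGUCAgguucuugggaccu
The longest run shared by the Mir125b-1 and Mir125b-2 hairpins is 24 bases and covers the whole 5p sequence. For the other 4 members the longest run shared with any other annotated miRNA hairpin is 16 bases (Mir99a and Mir100), 14 (Mir125a) or 11 (Mir99b), all shorter than their 22 to 24 base 5p sequences. The files keep reads that map to several places in a row of their own, with 3448592 reads in replicate 1 and 2698981 in replicate 2. Those reads are in no gene's count, so the values of Mir125b-1 and Mir125b-2 below are of uniquely placed reads. How many of the reads set apart are miR-125b-5p was not measured. A gene's count also sums both arms of the hairpin.

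By reads counted per gene, the 3 miR-99/100 genes were among the most read miRNA genes of the neural tube. The 3 Mir125 genes lay well below them, with multiply mapped miR-125b-5p reads in none of these counts. Mir99a ranked 3, Mir100 4 and Mir99b 7 by mean CPM, while Mir125a ranked 47, Mir125b-1 92 and Mir125b-2 100. Together the 6 genes held 15.2% of gene reads in replicate 1 (exact binomial 95% interval 15.18 to 15.24) and 16.8% in replicate 2 (16.77 to 16.84). Their mean share was 16.01% ± 1.13 (SD, n = 2). The miR-99/100 genes accounted for 15.4% ± 1.25 and the Mir125 genes for 0.593% ± 0.122. The miR-10 relatives Mir10a and Mir10b, the only genes ranked above Mir99a, held 32.8% ± 0.882. Multiply mapped reads of every gene are left out of these ranks and shares. They numbered 0.718 per own-strand gene read in replicate 1 and 0.610 in replicate 2. With them in the denominator the mean share of the 6 genes was 9.65%. Which genes these reads belong to, and their part in the ranks, was not tested.

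**Figure D1:**
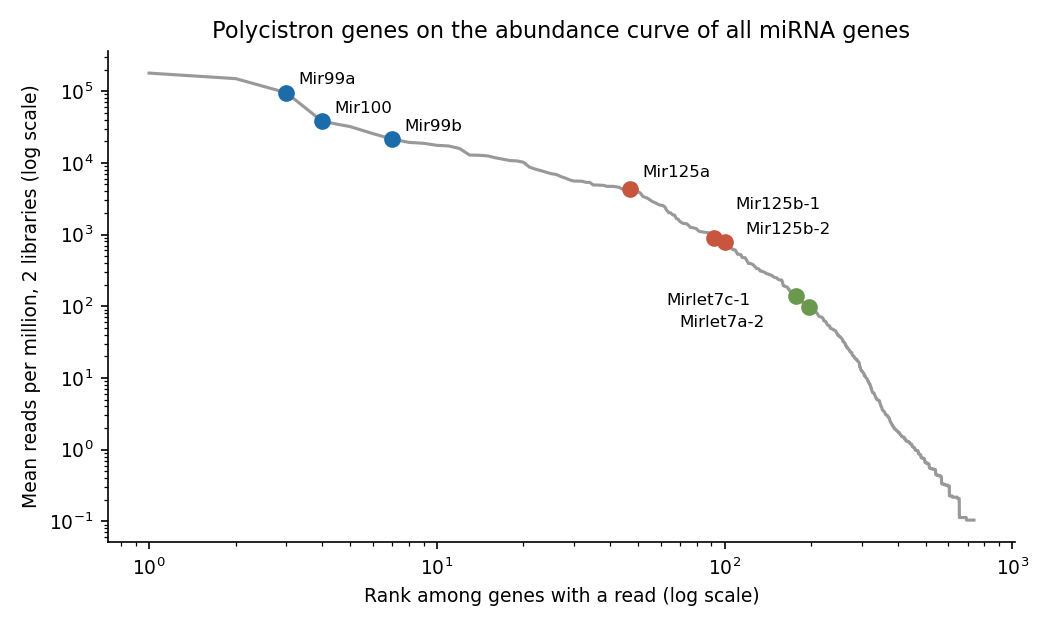
Mean CPM over the 2 libraries against rank, both on log scales, for every miRNA gene with a read (line), with the members and 2 let-7 genes of their polycistrons marked. Mir99a, Mir100 and Mir99b sit at ranks 3, 4 and 7, Mir125a at 47, and the Mir125b genes at 92 and 100.

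Mir99a lies in an intron of the non-coding gene Mir99ahg on chromosome 16 (chr16:77598936-77599000, mm10, plus strand). It had 425252 reads in replicate 1 and 448185 in replicate 2, or 88550 and 101334 CPM, with a mean of 94942 ± 9040 CPM (SD, n = 2). Mir100 lies in introns of 3110039I08Rik and Gm49317 on chromosome 9 (chr9:41531425-41531504, plus strand). Its 168957 and 178749 reads gave 35182 and 40415 CPM. Both genes had their higher CPM in replicate 2, and in each library Mir99a stood above Mir100 with no overlap. Mir99b lies in an intron of the protein-coding gene Spaca6 on chromosome 17 (chr17:17830188-17830257, plus strand). It had 103618 and 94037 reads, or 21576 and 21262 CPM, the closest pair among the members relative to the mean.

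Within the miR-99/100 family, Mir99a supplied 60.9% of reads in replicate 1 (exact interval 60.8 to 61.1) and 62.2% in replicate 2 (62.1 to 62.3). Mir100 supplied 24.2% and 24.8%, and Mir99b 14.8% and 13.0%. The Mir99a to Mir100 ratio was 2.52 in replicate 1 and 2.51 in replicate 2. The ratio of Mir99a to Mir99b was 4.10 and 4.77, and that of Mir100 to Mir99b 1.63 and 1.90. The ratio of Mir99a to Mir100 was thus the most even of the 3 between libraries, and Mir99b varied against both. miR-99a-5p and miR-100-5p share their first 15 bases. How short or mismatched reads were placed between them was not tested.

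Mir125a overlaps an exon of Spaca6, 0.624 kb from the start of Mir99b (chr17:17830812-17830879, plus strand). It had 24349 reads in replicate 1 and 15120 in replicate 2, or 5070 and 3419 CPM, with a mean of 4244 ± 1168 CPM (SD, n = 2). This was the widest relative spread of the 6 members. Mir125b-1, in introns of 3110039I08Rik and Gm49317 and on an exon of Gm28119 (chr9:41581926-41582002, plus strand), had 4677 and 3667 uniquely placed reads, or 973.9 and 829.1 CPM. Mir125b-2, in an intron of Mir99ahg and on an exon of C130023A14Rik (chr16:77646273-77646343, plus strand), had 3601 reads in each library, or 749.8 and 814.2 CPM. Mir125b-1 was the higher of the pair in both libraries, but the ratio of 1.16 ± 0.198 differed from 1 by less than its spread. Mir125a outnumbered Mir125b-1 by 4.66 ± 0.766 times and Mir125b-2 by 5.48 ± 1.81 times. Mir125a made up 74.6% of the counted reads of the 3 Mir125 genes in replicate 1 (exact interval 74.2 to 75.1) and 67.5% in replicate 2 (66.9 to 68.1). Multiply mapped miR-125b-5p reads are in neither Mir125b count, and their part in these ratios and shares was not tested.

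The other genes with the miR-125 seed fell on either side. Mir351, on the X chromosome, had 2282 and 1734 CPM, between Mir125a and the Mir125b genes in both libraries. Mir125a outnumbered it by 2.10 ± 0.177 times, and in uniquely placed reads it outnumbered Mir125b-1 by 2.22 ± 0.178 times. Mir6367 and Mir6394 had 0 reads in both libraries.

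From high to low in counted reads the order of the 6 genes was Mir99a, Mir100, Mir99b, Mir125a, Mir125b-1, Mir125b-2. With 2 libraries no exact two-sided test of an order can go below p = 0.5, so each step is set against its SD. All steps exceeded it except the last. A small RNA read spans about 1 mature miRNA, so CPM was not divided by gene length. Per 100 bases of annotated hairpin the order of the members was the same, from 146064 for Mir99a to 1101 for Mir125b-2.

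The 3 polycistrons differed in how far their miR-99/100 gene exceeded their miR-125 gene. On chromosome 16 Mir99a outnumbered Mir125b-2 118 times in replicate 1 and 124 times in replicate 2. On chromosome 9 Mir100 outnumbered Mir125b-1 36.1 and 48.7 times. On chromosome 17, where both 5p sequences occur in no other annotated miRNA hairpin, Mir99b outnumbered Mir125a only 4.26 and 6.22 times. The ranges of the 3 ratios did not overlap between polycistrons. The 2 higher ratios have a Mir125b gene in the denominator, whose reads of shared sequence are set apart; the part of this in the ratios was not tested.

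**Figure D2:**
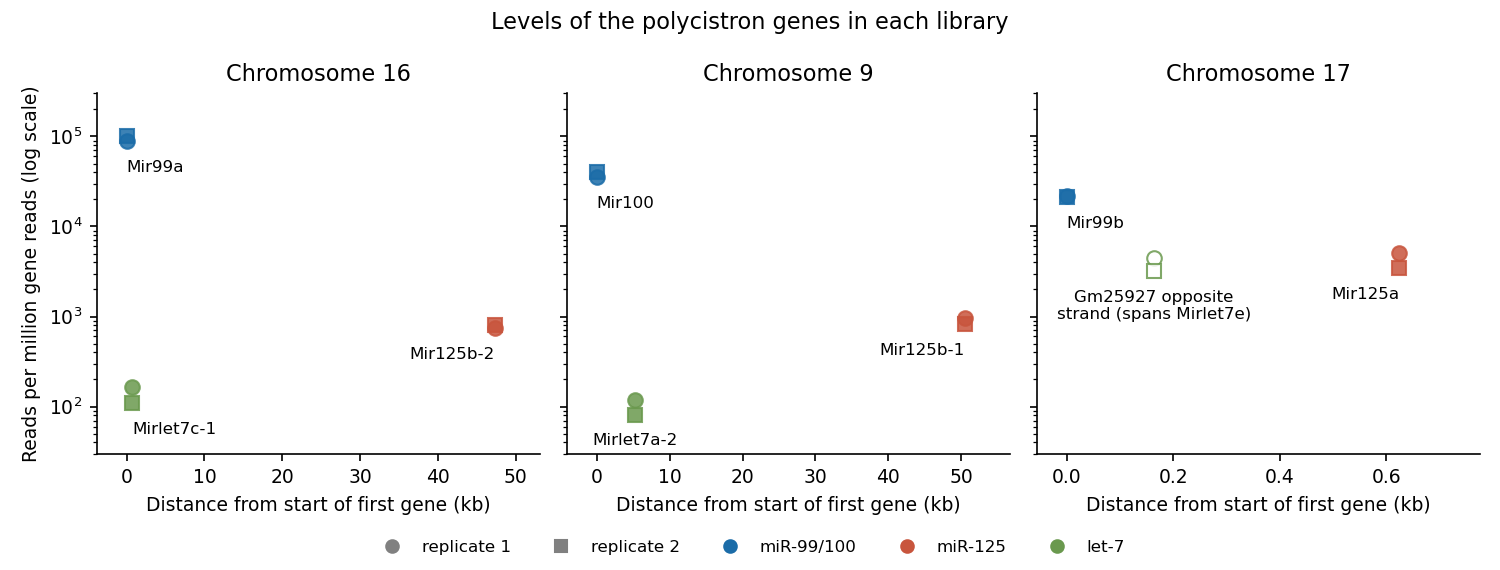
CPM (log scale) of each polycistron gene against its distance in kb from the start of the first gene, in 1 panel per chromosome, with circles for replicate 1 and squares for replicate 2. Colours mark the miR-99/100, let-7 and miR-125 genes, and open symbols are reads on the strand opposite to Gm25927. The first gene is the highest in each panel, and by uniquely placed reads the let-7 genes are the lowest on chromosomes 16 and 9.

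The polycistrons also differ in size. The chromosome 16 genes span 47.4 kb and those of chromosome 9 span 50.6 kb, with the Mir125b gene lying 47.3 and 50.5 kb from the start of the first gene. The chromosome 17 genes span 0.692 kb. Counting the members alone, chromosome 16 held 9.57% ± 0.909 of gene reads (SD, n = 2), chromosome 9 3.87% ± 0.360 and chromosome 17 2.57% ± 0.139. Most of each share came from the miR-99/100 gene, with Mir125a holding 0.507% and 0.342% of gene reads in the 2 libraries and the Mir125b genes at most 0.0974%.

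The let-7 genes of the same polycistrons, whose miRNAs accumulate as tissues differentiate, bear on the same comparison. Their mature sequences are close to those of other let-7 genes, as 2 of them show, with the seed in capitals.
let-7c-5p: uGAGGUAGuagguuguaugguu
let-7e-5p: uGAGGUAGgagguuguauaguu
let-7c-5p is also in the hairpin of Mirlet7c-2, and Mirlet7a-2 shares a run of 23 bases with Mirlet7a-1. let-7e-5p is in no other annotated miRNA hairpin, though those of Mirlet7a-1 and Mirlet7a-2 hold a stretch within 1 mismatch of it. Mirlet7c-1, 0.721 kb from the start of Mir99a, had 792 and 487 uniquely placed reads, or 164.9 and 110.1 CPM. Mirlet7a-2, 5.29 kb from the start of Mir100, had 561 and 360 reads, or 116.8 and 81.4 CPM. Mir99a thus outnumbered Mirlet7c-1 537 and 920 times in the 2 libraries, and Mir100 outnumbered Mirlet7a-2 301 and 497 times. The Mir125b genes stood above their let-7 neighbours as well, Mir125b-2 by 5.97 ± 2.01 times and Mir125b-1 by 9.26 ± 1.31 times. The counts of these let-7 and Mir125b genes leave out multiply mapped reads of shared sequence. The part of this in the ratios was not tested.

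Mirlet7e, the let-7 gene between Mir99b and Mir125a, has no row of its own identifier in the files. Its place is covered by Gm25927, a miRNA gene annotated on the minus strand (chr17:17830343-17830459) that had 0 own-strand reads in both libraries. On the plus strand, that of Mirlet7e, the same row held 21418 reads in replicate 1 and 14247 in replicate 2. On the CPM scale of the other genes these are 4460 and 3221. Mir99b exceeded them 4.84 and 6.60 times, and Mir125a 1.14 and 1.06 times. So on chromosome 17 the reads at the let-7 place and those of Mir125a were of like number in both libraries, with a ratio of 1.10 ± 0.0534. Which bases within the 117 of Gm25927 these reads cover is not given by a count. The members themselves had almost no opposite-strand reads, with 1 at Mir125b-1 in replicate 1 and 0 elsewhere.

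**Figure D3:**
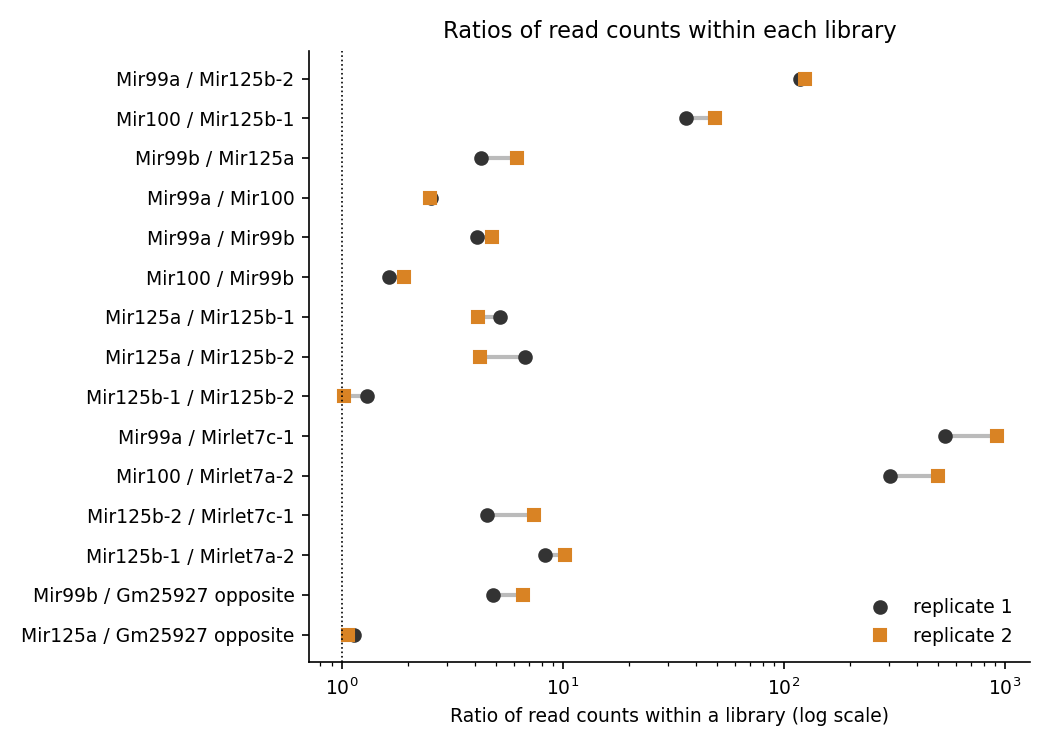
Ratios of uniquely placed read counts within a library (log scale) for the named pairs of genes, with circles for replicate 1, squares for replicate 2 and a dotted line at 1. Mir99a to Mir100 is the most even between libraries (2.52 and 2.51), while ratios with a let-7 gene in the denominator run from 301 to 920 for the miR-99/100 genes of chromosomes 9 and 16.

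Other miRNA genes of like sequence make-up were set beside the members. Of the 916 counted genes with a mature sequence in the RefSeq table, 103 have one that also occurs in another annotated miRNA hairpin, as the Mir125b genes do. Of these, 7 (6.80%) reached 1000 CPM, against 75 of the other 813 (9.23%). The share detected was 47.6% and 35.3%. Over the whole table, genes with a shared mature sequence were thus detected more often but reached 1000 CPM less often. A count sums both arms, so a gene can be detected by reads of an arm that is not shared. The sets of genes were also not matched in level, and the part of shared sequence in these shares was not tested. The 4 members without a shared mature sequence exceeded 1000 CPM, and Mir125b-1 and Mir125b-2 did not.

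The genes nearest in mean CPM were Mir10b above Mir99a, Mir99a and Mir100 to each other, and otherwise genes of other families. Mir335 was next below Mir100 (31984 ± 1592 CPM), with Mir100 1.18 ± 0.0570 times as high. Mir17 was next above Mir99b (25531 ± 2885) and the endothelial Mir126a next below (19281 ± 1447). Mir99b was 0.845 ± 0.104 times Mir17 and 1.11 ± 0.0720 times Mir126a. Mir125a lay between Mir431 (4252 ± 2.31) and Mir23a (4059 ± 638.0), but it was above both in replicate 1 and below both in replicate 2. Mir125b-1 lay between Mir425 and Mir154, at 0.961 ± 0.0507 and 1.03 ± 0.103 times their reads. Mir125b-2 lay between Mir674 and Mir20b, at 0.985 ± 0.0337 and 1.01 ± 0.0950 times their reads. Mir125b-2 was above both its neighbours in replicate 1 and below both in replicate 2, and Mir125b-1 was above Mir154 in replicate 1 and below it in replicate 2. Likeness in level over 2 libraries is a description.

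For each gene the libraries were compared by an exact binomial test (two-sided) on totals scaled by TMM, and p-values were adjusted by Benjamini-Hochberg over the 371 detected genes. The test compares these 2 libraries, not conditions, and covers counting error alone. Of the members 2 were higher in replicate 1 and 4 lower, while 26.1% of all detected genes were higher and 27.0% lower. With more reads the test calls smaller differences, and the detected genes were not matched to the members in read count. No member was 2-fold apart, where 2.70% of detected genes (10) were. The replicate spread itself, from edgeR's common coefficient of variation of 16.3%, gives the log2 ratio between libraries an SD of 0.33. Only Mir125a exceeded it among the members, as did 32.9% of the detected genes. In bulk tissue, fewer cells of a type and less RNA per cell cannot be told apart.

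Mir125a was 1.44-fold higher in replicate 1 (log2 ratio 0.53, adjusted p = 3.82e-280, exact binomial test), and 55 of the 371 genes were further apart. Mir125b-1 was higher there too (log2 ratio 0.19, adjusted p = 4.71e-09). Mir125b-2 lay on the other side (-0.16, adjusted p = 1.04e-05). Mir99a and Mir100 were lower in replicate 1 by nearly the same amount, with log2 ratios of -0.23 and -0.24 and adjusted p-values too small for the computation to tell from 0. Mir99b hardly differed (-0.02, adjusted p = 0.0133), and its direction turned to 0.02 with library totals in place of TMM. The median absolute log2 ratio of the members was 0.21, against 0.24 for all detected genes.

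The let-7 genes beside the members were also higher in replicate 1. Mirlet7c-1 had a log2 ratio of 0.54 (adjusted p = 1.63e-10, exact binomial test) and Mirlet7a-2 one of 0.48 (adjusted p = 1.84e-06), both above the common SD. The plus-strand reads at Gm25927 had a log2 ratio of 0.43 on the same scale, and the seed relative Mir351 one of 0.36. The ratio of Mir99a to Mirlet7c-1 was 1.71 times as high in replicate 2 as in replicate 1, and that of Mir100 to Mirlet7a-2 1.65 times. The ratio of Mir99b to Mir125a was 1.46 times as high in replicate 2. Unmapped reads also differed between the libraries, 27.3% of all reads in replicate 1 and 19.96% in replicate 2, and their part in these differences was not tested.

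**Figure D4:**
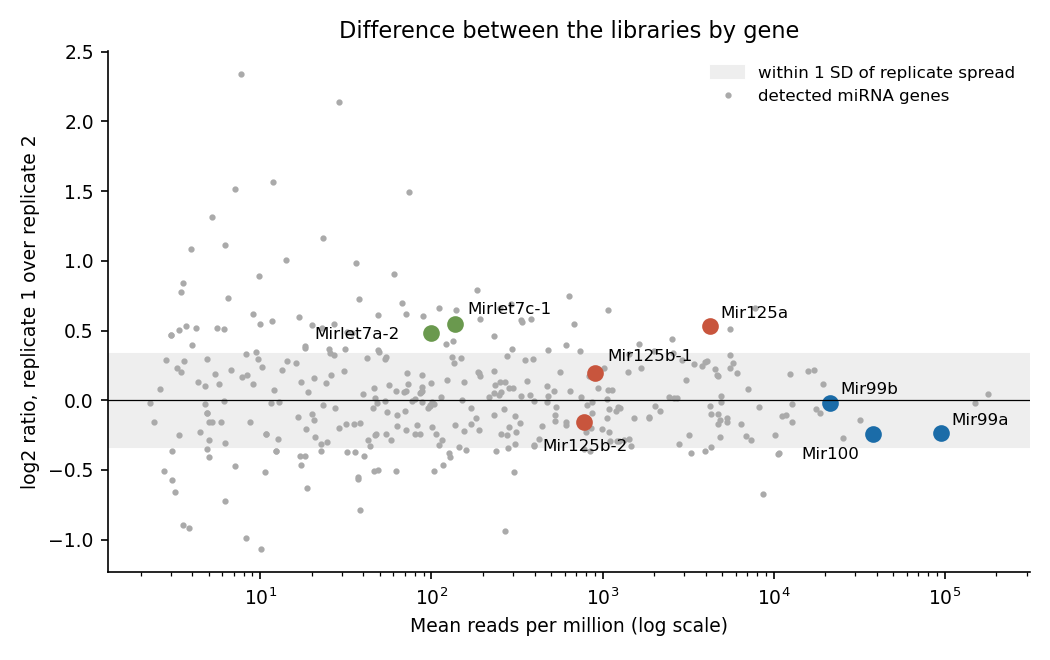
The log2 ratio of replicate 1 over replicate 2 (TMM-scaled) against mean CPM (log scale) for the 371 detected genes (grey points), with the members and 2 let-7 genes marked and a grey band of 1 SD of the replicate spread (0.33). Of the members only Mir125a (0.53) lies outside the band, and Mir99a and Mir100 lie together at -0.23 and -0.24.

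Markers of the labelled tissue and of other cell types were read in the same libraries. Of 10 neural genes listed, 9 are in the files and 7 were detected, with a summed level of 4043 CPM in replicate 1 and 4455 in replicate 2. Mir137 led them (2809 ± 379.0 CPM), while the 3 Mir124a genes, each sharing hairpin sequence with 2 other miRNA genes, had at most 10.8 CPM in either library. The endothelial gene Mir126a had 20304 and 18258 CPM, and the 6 mesenchyme and smooth muscle genes (5 detected) summed to 16460 and 15316. Of the 9 neural genes in the files, 7 share 20 bases of hairpin with another miRNA gene, counted on either strand. So do Mir126a and 2 of the 6 mesenchyme and smooth muscle genes. Mir126a, however, has no mature sequence in another annotated miRNA hairpin on that hairpin's own strand. Multiply mapped reads are in none of these sums, so the sums do not rank the cell types. The 5 striated muscle genes in the files summed to 825.4 and 479.1 CPM, with Mir133a-1 and Mir133a-2 at 0. Of these 5 genes all but Mir206 share hairpin sequence, on either strand, with 2 other miRNA genes. Mir1a-1 and Mir133b have no mature sequence in another annotated miRNA hairpin on its own strand. Multiply mapped reads are in none of these values. The 2 erythroid genes, the 3 leukocyte genes in the files and the liver gene Mir122 summed to at most 349.0 CPM each. Which cells of the dissected tissue the members' reads came from was not tested.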

How the data were processed

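The authors deposited raw read counts per miRNA gene for each library (both strands and each strand alone), on assembly mm10 with annotation M4 per the deposited descriptions of the files. The name of the aligner is not given in the sources used here, nor is that of the counter or any trimming step. Own strand is the column whose total was higher. The 4 rows that name no gene stayed out of totals and tests. Unmapped, multiply mapped and no-feature reads were 27.3%, 27.0% and 8.04% of replicate 1 and 19.96%, 28.6% and 4.45% of replicate 2. Nothing pairs or further divides the 2 pools, and p-values measure only the difference between them.

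Symbols, coordinates, hosts and hairpins came from GENCODE M21 (same assembly); 1894 of 1973 identifiers matched. Mature sequences came from RefSeq (GRCm38.p6), with a 5p entry for all 6 members. No genome sequence was used, so copies elsewhere in the genome were not looked for. Errors are SDs of 2 replicates, and intervals are exact (Clopper-Pearson, 95%). With a single group edgeR's quasi-likelihood test could not be fitted. TMM scaling and the common coefficient of variation came from edgeR 4.0.16 and alternative size factors from DESeq2 1.42.0 (R 4.3.3); other steps used Python 3.11.15, numpy 2.4.6, pandas 2.3.3, scipy 1.17.1 and matplotlib 3.10.9. The threshold was an adjusted p under 0.05, with and without at least 2-fold. The test was checked on simulated counts with counting error alone and library totals. That check does not show how the test behaves with replicate spread. Alternatives were scaling, filter (1 or 100 reads), strand column, denominator, hairpin length and leaving out a library.

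Members and lists were chosen with earlier results of these data known. Named genes are the members, their let-7 neighbours, Mir10a, Mir10b, Mir351, genes sharing a 5p seed, and the genes next above and below each member in mean CPM. Gm25927 was named after its values were seen.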

Additional observations from a re-analysis of the deposited data

Results flagged for a closer look

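Reads on the strand opposite to Gm25927, a column that no comparison of own-strand counts uses, numbered 21418 in replicate 1 and 14247 in replicate 2, far above the 3 counts that a count of 0 allows. They were 25.5% and 21.4% of all opposite-strand gene reads, and the row ranked 2 among all genes in that column in both libraries. Gm25927 spans Mirlet7e, which lies on the other strand between Mir99b and Mir125a.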

How the results depend on the processing

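With multiply mapped reads in the denominator, the levels fell to 57235 CPM for Mir99a, 22788 for Mir100, 12881 for Mir99b, 2537 for Mir125a, 540.9 for Mir125b-1 and 471.0 for Mir125b-2. The members' share was then 9.65%, by chromosome 5.77% (16), 2.33% (9) and 1.54% (17), and with the let-7 gene 5.78% (16) and 2.34% (9). Per 100 bases of hairpin the levels were 146064, 47248, 30598, 6242, 1171 and 1101 in the order of the members. Per base the ratio of Mir99a to Mir100 was 3.09, that of Mir100 to Mir99b 1.54 and that of Mir99a to Mir125b-2 132.5. With both strands counted Mir99b had 21076 CPM. Chromosome 17 held 2.95% with the plus-strand reads at Gm25927 (a setting added after seeing the data). The log2 ratio of Mir99b between the libraries was 0.0212 with library totals, 0.0234 with at least 100 reads, and -0.0115 (adjusted p = 0.128, exact binomial test) when scaled without the polycistron genes and genes sharing 20 bases of hairpin; across these settings no other member changed its direction or its side of the threshold. With at least 100 reads 2 genes were at least 2-fold apart, against 10. Of those 10 only Mir6236 (524 and 167 reads) had 100 reads or more in both libraries, so the filter itself left out the others. The other gene of the 2 was thus not among the 10. The TMM scaling also changed with the filter. Mir146 (234 and 106 reads) was just under 2-fold in the main setting, with a log2 ratio of 0.985. Among genes sharing no 20 bases of hairpin, Mir125a ranked 41. Mir125b-1 and Mir125b-2, which share 24 bases with each other and so are not of that set, ranked 72 and 78 against it. Mir125a ranked 35 in replicate 1 alone and 53 in replicate 2 alone. TMM moved none of 12 levels and shares beyond their SD, and DESeq2 size factors changed none of 21 results. Depth limits only genes near the floors of 0.625 and 0.678 CPM. No paired analysis was possible because the libraries form 1 group.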
